A study of Mustela putorius furo and Mus musculus with 4 samples.

Results

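Fatty acid synthesis and desaturation were compared between cultured ferret and mouse astrocytes through 10 genes, Acly, Acss2, Acaca, Acacb, Fasn, Elovl6, Elovl5, Elovl2, Fads1 and Fads2. The genes were taken by symbol, without regard to case, and all 10 were found among the 13373 symbols that the values of the 2 species share. Each had 1 value per library, so no choice between values was needed. The data comprise 4 RNA-seq libraries, 2 from ferret (Mustela putorius furo) astrocytes and 2 from mouse astrocytes of the ICR strain. Ferret cultures were started from the cerebral cortex of pups at postnatal day 1 and mouse cultures from pups at postnatal day 1 to 3. Both were primary cultures without any treatment or genetic change that set them apart, grown for 14 days in medium with fetal bovine serum, shaken to remove loosely attached cells and replated, and serum was left out of the medium for the last 4 days before RNA was taken. The serum-free medium was the same for both species and held transferrin, albumin, putrescine, progesterone, selenite, N-acetyl cysteine and heparin-binding EGF-like growth factor. Cells of several mouse pups were pooled in a flask, whereas the cells of a single ferret pup filled several flasks. The sources do not say whether the duplicates of a species came from separate cultures, so the p-values below measure only the spread between these libraries, which may be technical. Species, genome annotation and culture cannot be told apart in this design, and in RNA of whole cultures fewer cells of a type cannot be told apart from less RNA per cell.

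Fatty acids are built in the cytosol from acetyl-CoA. ATP citrate lyase (Acly) releases acetyl-CoA from citrate and acetyl-CoA synthetase (Acss2) makes it from acetate, the acetyl-CoA carboxylases (Acaca and Acacb) turn it into malonyl-CoA, and fatty acid synthase (Fasn) assembles palmitate. Elongases of the ELOVL family lengthen the chains, and the desaturases encoded by Fads2 and Fads1 place double bonds in them on the route to arachidonic and docosahexaenoic acid. Astrocytes are known as a site of polyunsaturated fatty acid synthesis in the brain, and SREBP transcription factors are known activators of most of these genes.

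Several of the genes are members of close families, and the sequences below show how alike the closest parts are, since reads from shared sequence cannot be assigned to a single gene. In the mouse (GENCODE annotation of GRCm38), Fads2 on the minus strand (chr19:10062765-10101746) lies between Fads3 (chr19:10041569-10060110) and Fads1 (chr19:10182888-10196877), both on the plus strand. Fads2 is 2654 bases from Fads3 and 81141 bases from Fads1. The longest run of bases that coding transcripts of Fads1 and Fads2 share was 17 bases, in coding exons, at the part of the gene that encodes a histidine box of these enzymes. The run, in capitals, also occurs in Fads3, and is printed 5′ to 3′ with 20 bases on either side in each gene:
Fads1: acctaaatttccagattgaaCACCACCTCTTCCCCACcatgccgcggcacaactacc
Fads2: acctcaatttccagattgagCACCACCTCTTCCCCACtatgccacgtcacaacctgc
Fads3: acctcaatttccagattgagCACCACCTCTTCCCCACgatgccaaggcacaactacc
Each window spans exons 10 and 11, at chr19:10194373-10194520 for Fads1, chr19:10064780-10065626 for Fads2 and chr19:10056272-10056456 for Fads3. Over the 57 bases, Fads1 and Fads2 were identical at 49, Fads1 and Fads3 at 52 and Fads2 and Fads3 at 51. The longest run shared by Fads2 and Fads3 was 54 bases. Acaca and Acacb, which encode the 2 acetyl-CoA carboxylases, shared at most 29 bases, again in coding exons and in capitals here:
Acaca: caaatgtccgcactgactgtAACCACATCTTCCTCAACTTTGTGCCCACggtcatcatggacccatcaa
Acacb: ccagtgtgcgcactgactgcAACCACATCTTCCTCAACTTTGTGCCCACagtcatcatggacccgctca
These windows lie in exon 38 of Acaca (chr11:84312812-84312880, plus strand) and in exon 35 of Acacb (chr5:114228616-114228684, plus strand), and 60 of their 69 bases are identical. Elovl2 and Elovl5 shared at most 23 bases, in the coding sequence of both. Elovl5 and Elovl6 shared at most 21 bases, an alternation of A and C outside the coding sequence of both. Elovl2 and Elovl6 shared at most 13 bases, also outside it. The runs that involve Elovl6 therefore do not show how alike the coding parts are. All of these runs are shorter than a sequenced read. Sequences of the ferret genes were not used here.

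The values are FPKM as deposited, that is, fragments scaled to exon length and to the mapped fragments of the library, quantified in each species on its own annotation. The files analysed give FPKM alone, and the read counts in the study's supplement were not used here, so no depth per library is given. The steps between low values put the ratio of the depths of replicate 1 and replicate 2 at 1.17 in the ferret and 0.835 in the mouse. Over the shared symbols, total FPKM was 227391 and 236543 for the ferret and 300465 and 308121 for the mouse, so that the scaling between species matters. The test was limma's moderated test of log2(FPKM + 1) over 10204 genes whose mean reached 1 FPKM in either species, and a gene was called where the Benjamini-Hochberg adjusted p was below 0.05 and the difference exceeded 1 on the log2 scale. The median difference of all genes tested (ferret minus mouse, on this scale) was -0.35. It was -0.01 when the libraries were rescaled to the mean of their 4 sums over the shared symbols, and 0.05 after quantile normalization. The label of the cells was checked against 11 astrocyte markers, of which 7 were called lower and 1 higher in the ferret, against 30.1% and 13.1% of all genes tested. Gfap was high throughout, at 1481 and 1522 FPKM in the ferret and 1429 and 1546 FPKM in the mouse, while Aldh1l1 stood at 10.1 and 9.60 FPKM in the ferret against 81.2 and 84.3 FPKM in the mouse. The glutamate transporter gene Slc1a2 was near absent in the ferret, at 0.133 and 0.178 FPKM against 47.1 and 51.8 FPKM. Another, Slc1a3, had 84.4 and 76.6 FPKM against 177 and 185 FPKM. S100b was the marker called higher, at 247 and 244 FPKM against 57.3 and 63.1 FPKM. Aldoc was higher without a call, at 1619 and 1700 FPKM against 916 and 1015 FPKM. By the adjusted p alone 2 markers were higher and 8 lower, against 32.4% and 56.2% of all genes tested.

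Of the 10 genes, 9 reached the level for testing and 6 were called, against 43.2% of all genes tested. Acly, Acss2 and the elongase gene Elovl6 were higher in ferret astrocytes, and Fasn, Elovl5 and both desaturase genes were higher in mouse astrocytes. Called higher in the ferret were 2 of the 9 genes, Acss2 and Elovl6, against 13.1% of all genes tested. Called lower were 4 of the 9, Fasn, Elovl5, Fads1 and Fads2, against 30.1% of all genes tested. By the adjusted p alone, 8 of the 9 passed, against 88.6% of all genes tested, with 3 higher (32.4%) and 5 lower (56.2%), and only Acaca missed it. With the replicate number as a block, the limma adjusted p of Acaca was 0.0474, which passes. The median difference of the 9 genes was -0.81 on the log2 scale, beside -0.35 for all genes tested. The ferret and mouse libraries did not overlap for any of the 10 genes, as for 94.1% of all genes tested.

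**Figure D1:**
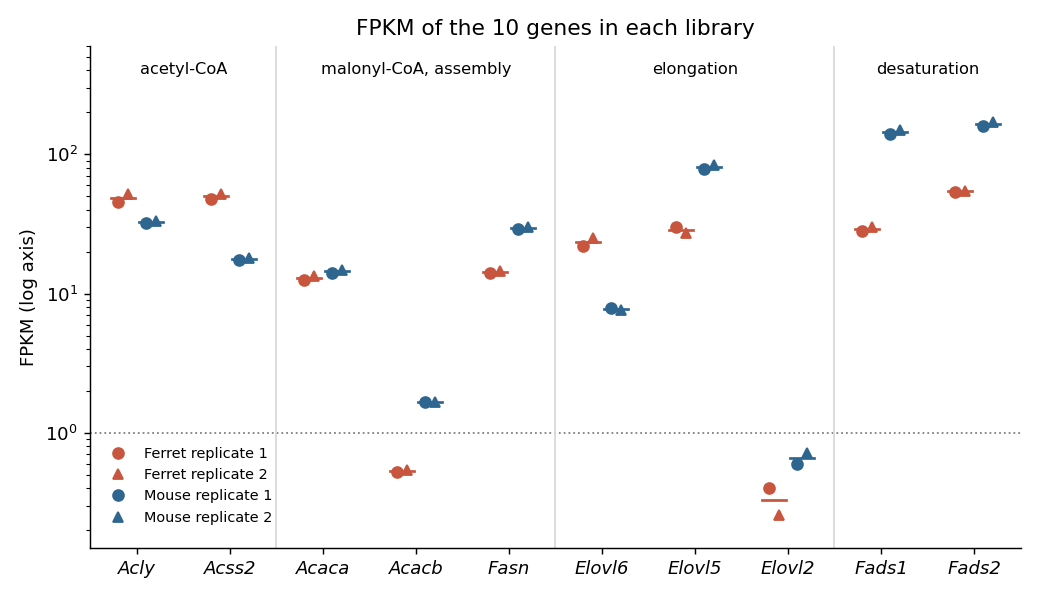
FPKM of the 10 genes on a log axis, ordered by step of the pathway, with circles for replicate 1 and triangles for replicate 2 of ferret (red) and mouse (blue) astrocytes, short lines for the means of 2 libraries and a dotted line at 1 FPKM. The ferret points lie above the mouse points for Acly, Acss2 and Elovl6 and below them for the other 7 genes, and Elovl2 lies below 1 FPKM in all 4 libraries.

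The acetyl-CoA forming enzymes were both higher in ferret astrocytes. Acss2, which encodes the cytosolic and nuclear enzyme that activates acetate, had 47.9 and 52.0 FPKM in ferret libraries and 17.4 and 17.9 FPKM in mouse libraries. Both ferret libraries were far above both mouse libraries, with a ratio of the means of 2.82 (2.67 to 2.98 over the 4 ferret-mouse library pairs). The difference on the log2(FPKM + 1) scale was 1.45 (standard error, SE, 0.064, limma adjusted p = 1.29e-08), and 92.5% of the genes tested had a lower difference. Acly, the citrate-cleaving enzyme, had 45.6 and 51.8 FPKM in the ferret and 32.3 and 33.0 FPKM in mouse libraries. The ferret libraries were again both higher, but the ratio of 1.49 (1.38 to 1.60 over the library pairs) was smaller. Its difference of 0.56 (SE 0.070, limma adjusted p = 3.45e-05) passed the adjusted p without reaching the size for a call, also at 0.94 after rescaling to equal library sums. The mouse Acss2 gene (chr2:155517948-155585724, plus strand) has 19 exonic regions of 10163 bases in all, of which 927 bases overlap exons of 3 genes on the opposite strand. The kit was stranded, and whether the authors' quantification used the strand is not given in the sources used here. Mouse Acly (chr11:100476353-100528000, minus strand) has 30 exonic regions and no such overlap.

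The genes for malonyl-CoA formation and chain assembly were lower in ferret astrocytes or close to even. Acaca, the main cytosolic carboxylase, had 12.5 and 13.3 FPKM in the ferret and 14.0 and 14.9 FPKM in mouse libraries. The mouse libraries were slightly higher, and the difference of -0.15 (SE 0.068, limma adjusted p = 0.0585) missed the threshold. Its direction depended on the scaling, with 0.21 after rescaling to equal library sums and 0.25 after quantile normalization, at limma adjusted p of 0.0087 and 0.00608. Acacb, whose product sits at the mitochondrial surface and is known for restraining fatty acid oxidation, was low in both species. It had 0.523 and 0.537 FPKM in the ferret and 1.67 and 1.68 FPKM in mouse libraries, a difference of -0.81 (SE 0.075, limma adjusted p = 3.45e-06). The added 1 FPKM takes up much of such low values, and with 0.1 added the difference was -1.49, past the size for a call.

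Fasn, the multienzyme that assembles palmitate, had 14.1 and 14.4 FPKM in the ferret and 29.1 and 30.0 FPKM in mouse libraries. The mouse libraries were higher, with a ratio of 2.07 (2.02 to 2.12 over the library pairs). The difference of -1.001 (SE 0.061, limma adjusted p = 1.30e-07) lay just past the size for a call. It was -0.98 without ferret replicate 1 or without mouse replicate 2 and -0.63 after rescaling to equal library sums, which end the call, while the limma adjusted p was at most 2.32e-04 in these fits. Mouse Fasn (chr11:120805846-120824547, minus strand) has 42 exonic regions. Fasn and Acaca therefore stood at nearly equal FPKM in ferret astrocytes, and Fasn was clearly above Acaca in mouse astrocytes.

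The 3 elongase genes did not move together. Elovl6, which lengthens palmitate and other saturated and monounsaturated chains, was higher in ferret astrocytes, with 22.1 and 25.0 FPKM in the ferret and 7.89 and 7.63 FPKM in mouse libraries. This was a ratio of 3.03 (2.80 to 3.27 over the library pairs) and a difference of 1.48 (SE 0.075, limma adjusted p = 3.39e-08), with 92.8% of the genes tested below it. Elovl5, the elongase of polyunsaturated chains, went the other way, with 29.9 and 27.3 FPKM in the ferret and 77.9 and 83.3 FPKM in mouse libraries. The mouse mean was 2.82 times the ferret mean (2.61 to 3.05 over the library pairs), and the difference was -1.46 (SE 0.067, limma adjusted p = 1.58e-08). Elovl2, the elongase that acts on the longest polyunsaturated chains on the way to docosahexaenoic acid, was hardly detected. It had 0.404 and 0.257 FPKM in the ferret and 0.602 and 0.718 FPKM in mouse libraries, below the level for testing in both species. Mouse Elovl6 lies at chr3:129532355-129638495 and Elovl5 at chr9:77917364-77984519, both on the plus strand, and Elovl2 at chr13:41182381-41220405 on the minus strand.

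Both desaturase genes were lower in ferret astrocytes, and the log2 difference of Fads1 was the widest among the 9 genes tested. Fads1, which acts on the elongated product of Fads2, had 28.2 and 30.0 FPKM in the ferret and 140.8 and 149 FPKM in mouse libraries. The mouse mean was 4.98 times the ferret mean (4.68 to 5.29 over the library pairs). The difference was -2.28 (SE 0.062, limma adjusted p = 5.02e-10), and 7.89% of the genes tested had a lower one. Fads2, which takes the rate-limiting first step of polyunsaturated fatty acid synthesis, had 54.0 and 54.7 FPKM in the ferret and 160 and 172 FPKM in mouse libraries. Its ratio was 3.05 (2.93 to 3.18 over the library pairs) and its difference -1.59 (SE 0.060, limma adjusted p = 4.04e-09). Fads3, named here as their neighbour in the cluster, went the other way, with 60.3 and 65.6 FPKM in the ferret and 42.9 and 44.9 FPKM in mouse libraries (difference 0.51, SE 0.064, limma adjusted p = 3.44e-05). After rescaling to equal library sums the differences were -1.89 for Fads1, -1.20 for Fads2 and 0.89 for Fads3.

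**Figure D2:**
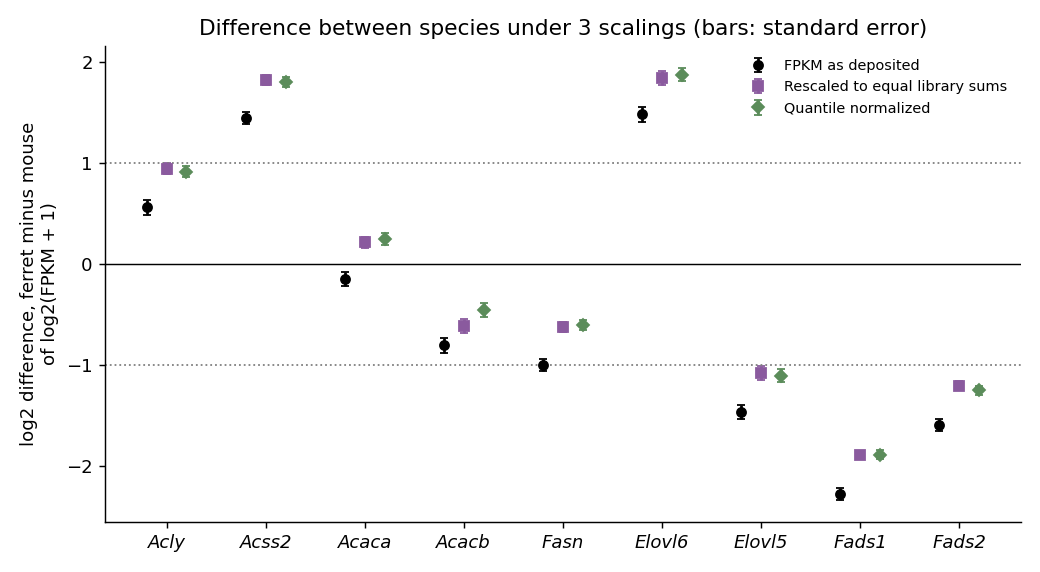
Differences between species (ferret minus mouse, log2 of FPKM + 1, with standard errors) for the 9 genes tested, with FPKM as deposited (black circles), rescaled to equal library sums (purple squares) and quantile normalized (green diamonds), and dotted lines at the size for a call. All 9 lie higher under the latter scalings, Acss2, Elovl6, Elovl5, Fads1 and Fads2 stay past the lines, Fasn moves inside them and Acaca crosses 0.

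Within a species, FPKM is per length, so the genes could be ordered by level. In ferret astrocytes the order was Fads2, Acss2, Acly, Fads1, Elovl5, Elovl6, Fasn, Acaca, Acacb and Elovl2. The libraries of Acss2 and Acly overlapped, as did those of Fads1 and Elovl5, so these neighbours did not differ beyond their spread. In mouse astrocytes the order was Fads2, Fads1, Elovl5, Acly, Fasn, Acss2, Acaca, Elovl6, Acacb and Elovl2, and no neighbours overlapped. Fads2 was thus the highest of the 10 in both species. Its mean was above that of 93.7% of the shared symbols in ferret and 98.2% in mouse astrocytes. Acss2 ranked at position 2 in the ferret and at position 6 in the mouse, and stood above 93.1% and 72.8% of the shared symbols. Elovl6 stood above 83.9% of the shared symbols in the ferret and 53.2% in the mouse. For Fads1 these shares were 87.3% and 97.8%.

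The make-up of the summed FPKM of the 10 genes differed accordingly. The sum was 255 and 269 FPKM in ferret libraries and 482 and 510 FPKM in mouse libraries, or 0.112% and 0.114% of the sum over shared symbols in the ferret and 0.160% and 0.165% in the mouse. Fads1 and Fads2 together made up 32.2% and 31.5% of it in ferret libraries and 62.4% and 62.9% in mouse libraries. Acly and Acss2 made up 36.7% and 38.5% in the ferret and 10.3% and 9.99% in mouse libraries. Elongation took 20.5% and 19.5% in the ferret and 17.9% and 18.0% in mouse libraries, and Acaca, Acacb and Fasn together took 9.13% to 10.6% in all 4 libraries. Among these 10 genes, acetyl-CoA supply was therefore the largest step by summed FPKM in ferret astrocytes and desaturation in mouse astrocytes. This order holds for the 10 genes only. Stearoyl-CoA desaturase genes do not enter the shares, although SCD alone had 162 and 157 FPKM in the ferret and Scd2 508 and 542 FPKM in mouse libraries. These shares are the same under any single scaling factor per library, were not computed after quantile normalization, and are a description without a test.

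**Figure D3:**
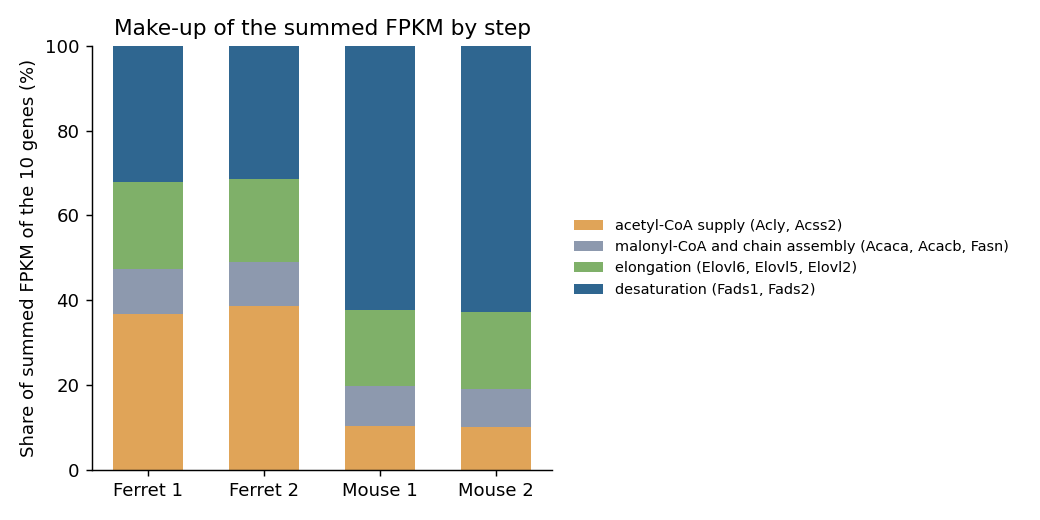
Share (%) of the summed FPKM of the 10 genes that falls to each step, as stacked bars for each of the 4 libraries. Desaturation fills 31.5% to 32.2% of the ferret bars and 62.4% to 62.9% of the mouse bars, and acetyl-CoA supply 36.7% to 38.5% and 9.99% to 10.3%.

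Ratios between genes of the same library are likewise free of a scaling factor per library, although the gene models still differ between species. With 2 libraries against 2, an exact permutation test cannot go below p = 0.333 (two-sided), so the ratios are given without a test. Of the 6 ratios formed, each between genes of the same family or step, that of Elovl6 to Elovl5 had the largest log2 difference between species, 3.09, at 0.739 and 0.915 in the ferret and 0.101 and 0.0917 in mouse libraries. On the log2 scale this was -0.28 ± 0.22 for the ferret and -3.38 ± 0.10 for the mouse (mean ± SD, n = 2 each). Acaca exceeded Acacb by 23.9 and 24.7 times in the ferret and by 8.40 and 8.86 times in mouse libraries. The ratio of Fasn to Acaca was 1.13 and 1.09 in the ferret and 2.08 and 2.01 in mouse libraries. Acly and Acss2 were level in the ferret, at ratios of 0.952 and 0.996, and Acly was ahead in the mouse, at 1.85 and 1.84. Fads2 exceeded Fads1 by 1.92 and 1.82 times in the ferret and by 1.14 and 1.15 times in mouse libraries. The ratio of Elovl5 to Elovl2 was 74.0 and 106 in the ferret and 129 and 116 in mouse libraries, and it rests on Elovl2 values below 1 FPKM.

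**Figure D4:**
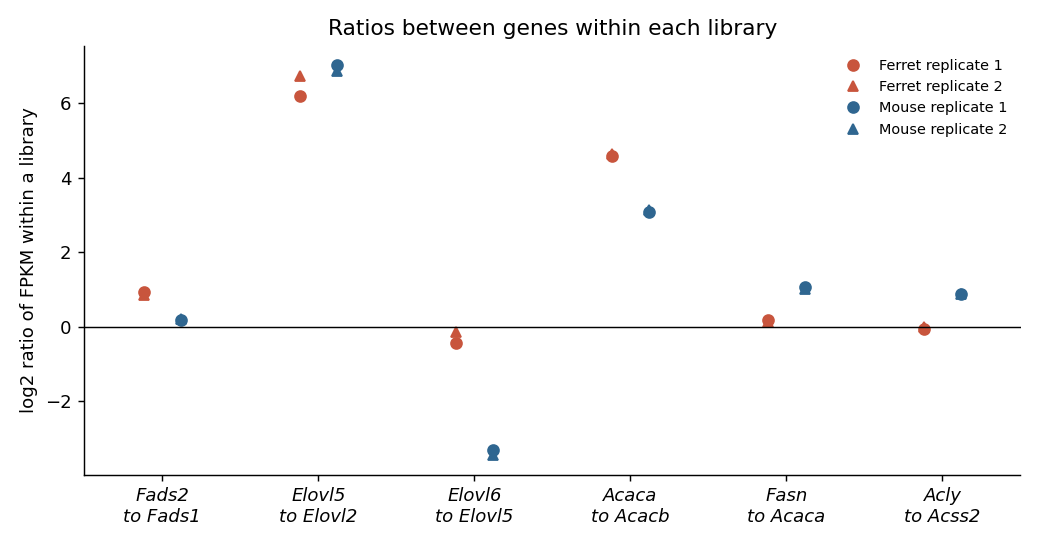
log2 ratios of FPKM between 2 genes of the same library, with circles for replicate 1 and triangles for replicate 2 of ferret (red) and mouse (blue) astrocytes. The ratio of Elovl6 to Elovl5 lies near 0 in the ferret and near -3.4 in mouse libraries, and the Elovl5 to Elovl2 ratios lie closest together relative to the spread of the duplicates.

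The genes of other enzymes of elongation and desaturation were mostly lower in ferret astrocytes. Of 19 symbols listed, 13 were shared and 12 tested, of which 9 were called lower and 1 higher, against 30.1% and 13.1% of all genes tested, with a median difference of -1.36 on the log2(FPKM + 1) scale beside -0.35 for all genes tested. After rescaling to equal library sums 5 were called lower and 1 higher, against 21.7% and 19.1% of all genes tested. The lower genes included those of enzymes that complete each elongation round after the ELOVL step. Tecr, the last reductase of the cycle, had 6.48 and 7.06 FPKM in the ferret and 88.4 and 93.0 FPKM in mouse libraries, a difference of -3.56 (limma adjusted p = 5.37e-11). The dehydratase gene Hacd2 had 8.38 and 8.83 FPKM against 79.3 and 77.8 FPKM, a difference of -3.05 (limma adjusted p = 8.16e-11). Hacd4 had 1.12 and 1.47 FPKM against 35.1 and 36.2 FPKM, a difference of -4.00 (limma adjusted p = 1.21e-10). The gene called higher was Fads6, a desaturase family member of little known function, with 10.1 and 11.3 FPKM in the ferret and 2.21 and 2.22 FPKM in mouse libraries (difference 1.86, limma adjusted p = 9.82e-09).

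Stearoyl-CoA desaturase, which makes monounsaturated from saturated chains, could not be matched by symbol. The ferret gene SCD had 162 and 157 FPKM, and no comparison is made with the mouse genes. In the mouse, Scd1 had 166 and 179 FPKM and Scd2 had 508 and 542 FPKM, while Scd3 and Scd4 stayed between 2.65 and 5.30 FPKM. Mouse Scd1 and Scd2 share a run of 147 bases in their coding sequence, which can leave reads that fit both, so their separate values are uncertain. SCD in the ferret and Scd2 in the mouse stood above Fads2 of the same species.

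The listed genes of SREBP and LXR regulators of lipid synthesis that were tested were lower in ferret astrocytes. All 12 regulator genes tested of the 14 listed were lower at an adjusted p below 0.05, against 56.2% of all genes tested, and 7 of them were called lower, against 30.1%. Their median difference was -1.43, beside -0.35 for all genes tested. After rescaling to equal library sums 2 of the differences turned positive, Mlx to 0.14 and Rxra to a smaller value, and these were named after their values were seen. Srebf1, which encodes the SREBP known for driving fatty acid genes, had 11.2 and 11.6 FPKM in the ferret and 50.0 and 54.7 FPKM in mouse libraries (difference -2.10, SE 0.067, limma adjusted p = 1.29e-09). Srebf2, better known for cholesterol genes, had 18.2 and 17.8 FPKM against 42.7 and 45.1 FPKM (difference -1.24, limma adjusted p = 2.69e-08). The Srebf2 difference was -0.86 after rescaling to equal library sums, which ends its call. The SREBP escort gene Scap, its retention factor Insig2 and the oxysterol receptor gene Nr1h3 were called lower as well, with differences of -1.61, -2.08 and -2.002. Thrsp, a gene of lipogenic tissues, is listed at 0 in ferret replicate 1 and had 0.113 FPKM in ferret replicate 2, against 16.8 and 18.5 FPKM in mouse libraries (difference -4.14, limma adjusted p = 1.14e-10), and its partner Mid1ip1, whose product promotes polymerization of acetyl-CoA carboxylase, had 36.0 and 35.1 FPKM against 105 and 120 FPKM. Prkaa1, which encodes a catalytic subunit of the kinase that inhibits the carboxylases, was higher in ferret astrocytes, with 38.8 and 39.8 FPKM against 11.6 and 11.7 FPKM (difference 1.67, limma adjusted p = 3.00e-09). Prkaa2, which encodes the other catalytic subunit, went the other way, with 1.94 and 2.05 FPKM against 3.64 FPKM in both mouse libraries (difference -0.63, limma adjusted p = 2.27e-05). Prkaa1 and Prkaa2 were counted in the supply list that follows and not among these 12 regulators. Insig1 was found in the mouse values alone, at 27.0 and 29.2 FPKM.

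Genes of citrate, acetyl-CoA and NADPH supply were closer to even. Of 14 listed, 12 were tested, 1 was called higher (Prkaa1) and 2 lower (Aacs and Pdha1), against 13.1% and 30.1% of all genes tested. The list also holds Prkaa1 and Prkaa2, which encode subunits of a regulatory kinase, so no enzyme or carrier gene of supply itself was called higher. The median difference was -0.17, beside -0.35. By the adjusted p alone 5 were higher and 6 lower, against 32.4% and 56.2%. Me1, the malic enzyme that yields NADPH in the cytosol, had 118 and 116 FPKM in the ferret and 65.2 and 68.6 FPKM in mouse libraries (difference 0.80, limma adjusted p = 4.60e-07), and reached 1.19 after rescaling to equal library sums. Slc25a1, the carrier that exports citrate from mitochondria, had 59.5 and 66.4 FPKM against 47.0 and 50.9 FPKM (difference 0.35, limma adjusted p = 9.85e-04). The malate dehydrogenase gene Mdh1 was lower in ferret astrocytes, with 141 and 145 FPKM against 242 and 260 FPKM (difference -0.81), and Acss1, the mitochondrial relative of Acss2, had 8.01 and 8.24 FPKM against 13.7 and 15.3 FPKM (difference -0.77). Aacs, which makes acetoacetyl-CoA for lipid synthesis in the cytosol, was lower, with 6.14 and 6.37 FPKM against 17.1 and 18.0 FPKM (difference -1.35, limma adjusted p = 3.10e-08).

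Genes of acyl-CoA synthetases, enzymes that activate fatty acids for use, differed in both directions. Of 13 listed genes 8 were tested, 2 were called higher and 3 lower in ferret astrocytes, against 13.1% and 30.1% of all genes tested, and the median difference was -0.60, beside -0.35. Acsl1 had 14.0 and 13.5 FPKM in the ferret and 5.40 FPKM in both mouse libraries (difference 1.21, limma adjusted p = 7.55e-08). Acsl4, which prefers arachidonic acid, had 19.2 and 18.3 FPKM against 8.73 and 8.07 FPKM (difference 1.07, limma adjusted p = 2.14e-07). Acsbg1, an acyl-CoA synthetase abundant in rodent astrocytes, had 3.88 and 4.02 FPKM in the ferret against 143 and 151 FPKM in mouse libraries, a difference of -4.90 (limma adjusted p = 8.15e-12). Acsl5 was called lower too, with a difference of -2.17, as was Slc27a1 with -1.09, while Acsl3 had -0.82. Acsl6, Dbi and Slc27a3 were found in the mouse values alone, with Acsl6 at 53.9 and 59.4 FPKM. Acsf3 was found in the ferret values alone, at 15.4 and 16.2 FPKM.

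**Figure D5:**
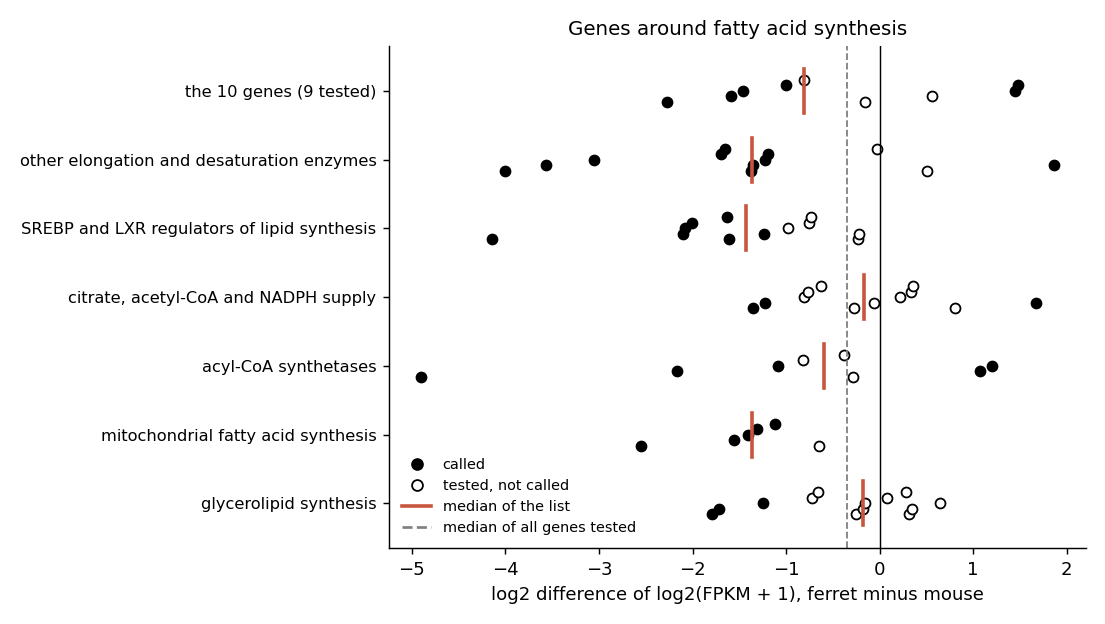
Differences between species (ferret minus mouse, log2 of FPKM + 1) of each tested gene, by list, with filled circles for called genes, open circles for the others, red lines at the median of each list and a dashed line at the median of all genes tested, -0.35. Among the lists shown, SREBP and LXR regulators of lipid synthesis and mitochondrial fatty acid synthesis lie wholly below 0, and the 10 genes themselves span -2.28 to 1.48. Prkaa1 and Prkaa2 are drawn in the supply list.

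Markers of other cell types also differed between the species, and the sums given here cover the symbols shared by both. Microglial markers, 14 of which were tested, were called lower in the ferret for all 14, against 30.1% of all genes tested. Their summed levels were 8.62 and 7.49 FPKM in the ferret and 845 and 829 FPKM in mouse libraries. Tyrobp had 0.868 and 0.509 FPKM against 149 and 142 FPKM, and Cx3cr1 is listed at 0 in both ferret libraries. Meningeal fibroblast markers were called lower for 9 of 10 genes, against 30.1% of all genes tested. Their sums were 125 and 111 FPKM in the ferret and 1643 and 1625 FPKM in mouse libraries, and Mgp is listed at 0 in both ferret libraries. Col1a1 had 32.2 and 28.8 FPKM in the ferret against 164 and 156 FPKM. The marker not called, Pdgfra, was higher in the ferret, at 3.07 and 3.23 FPKM against 1.64 and 1.23 FPKM (difference 0.77, limma adjusted p = 2.77e-05). Oligodendrocyte lineage markers were called higher for 3 of 7 genes tested, against 13.1% of all genes tested. Sox10 was among them, at 26.3 and 31.0 FPKM against 0.231 and 0.304 FPKM. By the adjusted p alone 5 were higher and 2 lower, against 32.4% and 56.2% of all genes tested. The lower genes were Olig2 and Cspg4, with differences of -0.82 and -0.47. This list had sums of 167 and 185 FPKM in the ferret and 67.5 and 67.8 FPKM in mouse libraries. Of the neuronal markers 3 were tested and 1 was called higher, against 13.1% of all genes tested. Their sums were 27.2 and 27.3 FPKM in the ferret and 33.0 and 34.4 FPKM in mouse libraries. Map2 made up most of these sums, at 18.8 and 19.0 FPKM against 30.4 and 31.3 FPKM (difference -0.68). Syt1, the gene called, had 5.11 and 4.94 FPKM against 1.12 and 1.25 FPKM. Elavl3 had 2.16 and 2.24 FPKM against 0.964 and 1.00 FPKM. By the adjusted p alone 2 were higher and 1 lower, against 32.4% and 56.2% of all genes tested. Olig1, C1qa and Stmn2 were found in the mouse values alone and are not in these sums, at 107 and 117 FPKM for Olig1, 193 FPKM in both libraries for C1qa and 124 and 127 FPKM for Stmn2. The part of these cell types in the differences of the fatty acid genes was not tested. Adipocyte markers summed to at most 4.82 FPKM in any library, with Fabp4 the only one tested and called lower in the ferret, and Cidec is listed at 0 in all 4 libraries.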

How the data were processed

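RNA of cultured ferret and mouse astrocytes (2 libraries each) was sequenced from stranded, polyA-selected libraries. The authors aligned reads with STAR (version 2.7.0f) to the Ensembl genome of each species and deposited FPKM per gene from Cufflinks (version 2.2.1), normalized within each library. Read counts in the study's supplement were not used here. Symbols were matched in upper case, keeping for repeated symbols (7 in the ferret, 13 in the mouse) the value with the highest mean. All libraries entered limma (version 3.58.1, R 4.3.3, empirical Bayes with trend) on log2(FPKM + 1) with species as the term, which was tested on simulated data. The simulation changed far fewer genes than were called here, equally in both directions, so it does not show how the fit performs on these data. The 10 genes, the lists and the naming rule (all 10 genes, up to 6 tested genes of a pathway list by size of difference, and set regulators, enzymes and markers) were chosen with earlier results of these data known. Outside this rule, Fads3, Scd3, Scd4, Mlx, Rxra, Prkaa2, Dbi, Slc27a3, Acsf3, Olig1, Olig2, Cspg4, C1qa, Stmn2, Slc1a2, Cx3cr1, Mgp, Fabp4, Cidec and the genes of the closing observations were named after their values were seen. The same holds for S100b, Aldoc, Pdgfra, Map2, Syt1 and Elavl3. Mouse positions and sequences are from GENCODE M21 on GRCm38, the authors' build in another annotation release. Ferret positions were not used here. Python 3.11.15 with pandas 2.3.3 made the lists and figures. Alternatives were a pseudocount of 0.1, no filter, rescaled or quantile normalized FPKM, a replicate block, summed values of a symbol and each library left out.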

Additional observations from a re-analysis of the deposited data

How the results depend on the processing

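Acss2, Elovl6, Elovl5, Fads1 and Fads2 kept their direction and call under every alternative that was run. Under the alternatives that kept every library, 2 of the 10 genes were called higher and 3 to 5 lower. Of all genes tested, 9.98% to 20.3% were called higher and 20.5% to 33.6% lower under these alternatives. Fasn lost its call, at -0.63 after rescaling to equal library sums and -0.60 after quantile normalization, and ranged from -0.98 to -1.02 when a library was left out. Acaca turned to 0.21 and 0.25 under these scalings, and Acacb reached -1.49 with a pseudocount of 0.1. Over all genes, 30.3% of the calls were higher in the ferret as deposited, 46.9% after rescaling and 49.8% after quantile normalization. The list medians moved after rescaling and after quantile normalization to -0.98 and -1.01 for other elongation and desaturation enzymes, -1.05 and -1.03 for regulators, 0.20 and 0.21 for citrate, acetyl-CoA and NADPH supply, -0.23 and -0.23 for acyl-CoA synthetases, -1.03 and -0.94 for mitochondrial fatty acid synthesis, and 0.17 and 0.24 for glycerolipid synthesis. Without the filter they were -1.24 for regulators and -0.38 for acyl-CoA synthetases. After rescaling, 21.7% of all genes tested were called lower and 19.1% higher. By list, 5 other elongation and desaturation enzymes, 3 genes of mitochondrial fatty acid synthesis and 0 of the supply list were called lower. Of the regulators 6 were called lower, without Srebf2 at -0.86. Of the acyl-CoA synthetases 2 were called lower, without Slc27a1 at -0.72, and of the glycerolipid genes 2, without Agpat3 at -0.86. In the other direction, 2 genes of the supply list (Prkaa1 and Me1) and 1 glycerolipid gene were called higher. After quantile normalization, 20.5% of all genes tested were called lower and 20.3% higher. Here 2 genes of mitochondrial fatty acid synthesis and 0 of the supply list were called lower, and 2 of the supply list higher. The log2 ratio of the summed FPKM of the 10 genes, ferret to mouse, was -0.92 as deposited, -0.53 after rescaling and -0.67 without Fads2. Same-numbered libraries did not deviate together (r = 0.00995 over 10204 genes), the numbers come from the labels alone, and with the replicate number as a block 2 genes were called higher and 4 lower, as without it, while the limma adjusted p of Acaca went from 0.0585 to 0.0474. With a library left out, the lone library of a species is assumed to vary like the others. No counts were used here, so no counting interval is given for low values such as those of Elovl2, which had an adjusted p of 0.03 by limma without the filter.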

Other observations

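Mitochondria hold a separate fatty acid synthesis route, which supplies the precursor of lipoic acid, and its genes were lower in ferret astrocytes. Of 9 genes listed 6 were tested, all 6 were lower at an adjusted p below 0.05 by limma and 5 were called lower, against 56.2% and 30.1% of all genes tested. The median difference was -1.36 on the log2(FPKM + 1) scale, beside -0.35 for all genes tested. Cbr4, a subunit of its ketoacyl reductase, had 3.97 and 4.06 FPKM in the ferret and 28.5 and 28.1 FPKM in the mouse libraries (difference -2.55). Mecr, its enoyl reductase, had 6.30 and 6.45 FPKM against 20.4 and 21.1 FPKM (difference -1.56), and the lipoic acid synthetase gene Lias had 7.19 and 7.95 FPKM against 20.4 and 20.1 FPKM (difference -1.31).

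Genes that build glycerolipids from fatty acids were divided. Of 15 listed 13 were tested, none was called higher and 3 were called lower, against 13.1% and 30.1% of all genes tested. By the adjusted p alone 4 were higher and 6 lower, against 32.4% and 56.2%. Agpat4, which favours polyunsaturated acyl groups, had 7.81 and 8.21 FPKM in the ferret and 30.0 and 30.3 FPKM in the mouse libraries (difference -1.79, limma adjusted p = 2.74e-09). Lpin1, a phosphatidate phosphatase, was called lower by -1.71 and Agpat3 by -1.25. Agpat1 was higher in the ferret, with 58.9 and 61.4 FPKM against 37.0 and 39.2 FPKM (difference 0.64, limma adjusted p = 3.64e-06), and the entry enzyme gene Gpam had 35.8 and 35.6 FPKM against 28.0 and 30.2 FPKM (difference 0.29, limma adjusted p = 0.00164).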
